A study of Mus musculus with 2 samples.

Results

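The cells described here are CD8 T cells of mouse lymph nodes that carried transcripts of Xcl1, Lag3 or Tyrobp. They were chosen by their measured values: a cell needed at least 1 UMI (unique molecular identifier, 1 counted transcript) summed over Cd3d, Cd3e and Cd3g, at least 2 over Cd8a and Cd8b1, 0 of Cd4, 0 of Cd79a, and at least 2 summed over Xcl1, Lag3 and Tyrobp. Of 10063 kept cells, 2362 passed the CD8 part of this rule and 106 passed all of it. The levels of Xcl1, Lag3 and Tyrobp are therefore a description of the choice, and every other difference between these cells and the remaining CD8 T cells is given as a description of the same cells, with no test.

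The study profiled lymph node immune cells of mice that had received a heart transplant, by droplet 3' single-cell RNA sequencing. In the allogeneic group the donor was C57BL/6 and the recipient Balb/c, and in the syngeneic group both were Balb/c. All mice were 6 to 8 weeks old, and both groups carried a graft, so neither group shows an ungrafted mouse. Each group is 1 library. The number of mice behind a library, the lymph node sampled and the time after grafting are not given in the sources used here. No difference below has a replicate check, and every 95% interval covers counting error only.

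XCL1 is a chemokine made by activated CD8 T cells and natural killer cells, and its receptor XCR1 sits on the dendritic cells that cross-present antigen. LAG3 is an inhibitory receptor of activated T cells that binds MHC class II and related ligands. TYROBP (DAP12) is a membrane adaptor that carries activating receptors of natural killer and myeloid cells to the surface, and HCST (DAP10) does so for NKG2D, the product of Klrk1. CTLA2A, encoded by Ctla2a, is a cathepsin inhibitor of activated T cells.

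The rule genes lie apart in the mouse genome (GRCm38 annotation). Xcl1 is on chromosome 1 (164931644 to 164935527, minus strand) and Lag3 on chromosome 6 (124904361 to 124911705, minus strand). Lag3 is 16139 bases from Cd4, whose transcripts the rule bars, with 0 protein-coding genes between them. Tyrobp is on chromosome 7 (30413760 to 30417585, plus strand), 126 bases from Hcst, which runs toward it on the minus strand. Whether the deposited counts used strand was not stated in the labels. Among the other marker genes named with the cells, Klrk1 is on chromosome 6 (129610323 to 129623864) and Ctla2a on chromosome 13 (60934155 to 60936625).

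The libraries differed in quality. The allogeneic library held 3500 barcodes, of which 2106 passed the filters (200 or more genes, mitochondrial UMIs no more than 10%), with a median of 3147 UMIs. The syngeneic library held 7967 barcodes, of which 7957 passed, with a median of 4917 UMIs. Before filtering, 66 barcode sequences occurred in both libraries, and 1 chosen cell carried such a barcode. Of these sequences 26 were kept in both libraries. Leaving out the cells with those 26 left all 13 allogeneic and 93 syngeneic chosen cells in place. Neutrophil transcripts were spread through the allogeneic library: S100a8 stood at 643 CPM (UMIs scaled to 1000000 per group) in the chosen cells, 563 CPM in the other CD8 T cells and 667 CPM in B cells.

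The chosen cells made up 13 of 380 CD8 T cells in the allogeneic library, 3.42% (exact interval 1.83 to 5.78%), and 93 of 1982 in the syngeneic library, 4.69% (3.80 to 5.72%). These intervals overlap. The chosen cells were deeper than the rest, with medians of 5916 against 4188 UMIs (allogeneic) and 7672 against 5222 UMIs (syngeneic), and depth raises the chance of reaching 2 UMIs. When each cell was thinned to 2000 UMIs, the shares were 1.07% and 1.42%. At the threshold itself, 7 allogeneic and 45 syngeneic cells had a sum of exactly 2. Just outside it, 46 allogeneic and 207 syngeneic CD8 T cells had a sum of 1.

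Not all of the chosen cells matched the T cell label. Cells were set apart as mixed when they had at least 20 UMIs of monocyte, dendritic or neutrophil markers and Siglech (without S100a8 and S100a9), or at least 50 UMIs of S100a8 and S100a9. This cut was chosen after the values were seen. It marked 16 of 93 syngeneic chosen cells (17.2%, exact interval 10.2 to 26.4%) against 3 of 1889 other CD8 T cells (0.159%, 0.0328 to 0.463%). In the allogeneic library it marked 1 of 13 chosen cells and 0 of 367 others. The mixed cells held 341 of the 404 syngeneic Tyrobp UMIs and 54 of the 62 allogeneic ones, so most Tyrobp signal under the rule sat in cells that also carried myeloid or dendritic transcripts.

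The syngeneic mixed cells were of several kinds. In 7 of them Siglech, a receptor of plasmacytoid dendritic cells, had 6 to 14 UMIs. These 7 cells held 25 to 71 Tyrobp UMIs and 17 to 68 H2-Aa (MHC class II) UMIs each, but only 1 to 3 UMIs over the Cd3 genes. Cd8b1 was present in all of them with 2 to 12 UMIs, and Lag3 in 5 of them. Another 7 carried 14 to 155 UMIs of Fscn1, an actin-bundling protein of mature dendritic cells. Of those, 4 had a Cd3 sum of 1 to 3, and 3 had a Cd3 sum of 12 to 39 beside Fscn1. Ccl5 reached 669 UMIs in 1 Fscn1 cell. A further cell combined 26 Cd3 UMIs with neutrophil transcripts, and the last carried dendritic and monocyte markers with 5 Cd3 UMIs.

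The allogeneic mixed cell had 24687 UMIs, of which 6368 came from the 5 neutrophil markers, with 54 Tyrobp UMIs and 2 Cd3 UMIs. T cell genes that the rule did not use stood at 520 CPM in the syngeneic mixed cells, with 0 to 27 UMIs per cell and a median of 2. In B cells these genes stood at 455 CPM, of which Cd2 alone gave 229 CPM. The same genes stood at 2025 CPM in the 77 unmixed syngeneic chosen cells and 1956 CPM in the other CD8 T cells. No doublet caller was run, and whether the mixed barcodes hold 2 cells was not tested. All gene values below are from the unmixed chosen cells, 12 allogeneic and 77 syngeneic, and the other CD8 T cells are likewise without the 3 mixed ones.

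**Figure D1:**
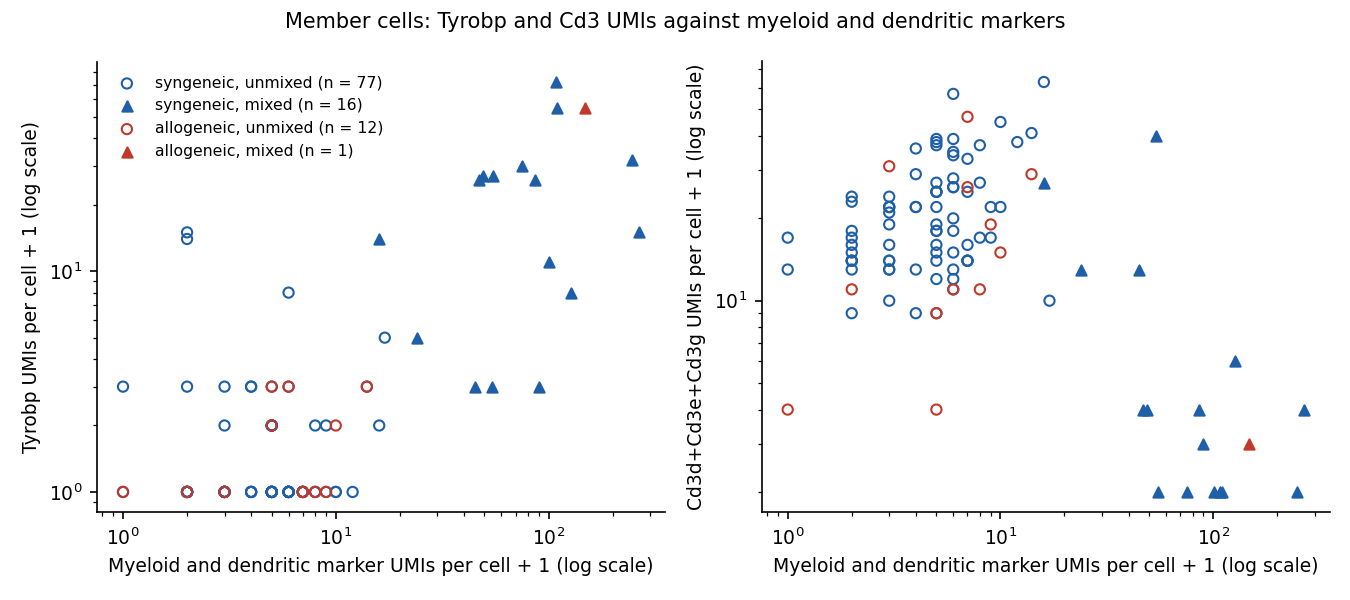
Each point is 1 chosen cell of the allogeneic or syngeneic library, with the summed UMIs of myeloid and dendritic markers on the x axis and Tyrobp UMIs or summed Cd3 UMIs on the y axes (all plus 1, log scales). Triangles are the 16 syngeneic cells and 1 allogeneic cell set apart as mixed, which hold most Tyrobp UMIs, many of them with a Cd3 sum of 3 or less.

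Most of the 77 unmixed syngeneic cells had UMIs of only 1 of the 3 rule genes. Xcl1 alone was seen in 34 cells, Lag3 alone in 11 and Tyrobp alone in 8. Xcl1 came with Lag3 in 11 cells, Xcl1 with Tyrobp in 7, Lag3 with Tyrobp in 4, and all 3 in 2. The group is therefore mainly one of Xcl1 cells: 54 of 77 (70.1%) had an Xcl1 UMI. Its 360 Xcl1 UMIs were very unevenly spread, since 42 of those 54 cells had 1 to 3 UMIs and 1 cell had 169, 46.9% of the total. Lag3 had 64 UMIs in 28 cells, at most 6 in a cell, and Tyrobp 63 UMIs in 21 cells, at most 14.

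The 12 unmixed allogeneic cells had another make-up. Lag3 was present in 8 of them (27 UMIs, at most 7 in a cell), Tyrobp in 5 (8 UMIs) and Xcl1 in 2 (2 UMIs). Lag3 alone accounted for 7 cells, Tyrobp alone for 3, Xcl1 with Tyrobp for 1 and all 3 genes for 1. Of B cells, which should lack these genes, 13.8% of syngeneic and 7.62% of allogeneic ones had a Tyrobp UMI, at median depths of 4126 and 2259.5 UMIs. Among all CD8 T cells the Tyrobp share was 7.42% (syngeneic) and 11.8% (allogeneic), so in the syngeneic library a Tyrobp UMI was no more frequent in CD8 T cells than in B cells. The B cells were not cleared of mixed barcodes. Single syngeneic ones held up to 158 monocyte and up to 275 neutrophil marker UMIs. Xcl1 was seen in 2.14% of syngeneic B cells and in 0 of 210 allogeneic ones, which allows up to 1.74% of cells. Lag3 was seen in 1.22% and 0.476% of B cells.

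Comparing the chosen cells with the other CD8 T cells of the syngeneic library asks what else these cells express. Over all 93 chosen cells, 349 of 6356 measured genes (5.49%) were at least 2-fold higher and 56 (0.881%) at least 2-fold lower. A gene counts as measured when at least 10 UMIs were expected in the smaller group, and the rule genes are left out. Scaling to UMIs without mitochondrial, ribosomal and haemoglobin genes gave 302 higher and 114 lower. In the 77 unmixed cells 144 of 5571 genes (2.58%) were at least 2-fold higher and 43 (0.772%) lower, with a median log2 ratio of 0.07 over all measured genes.

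Ctla2a and Klrk1, both listed with the rule genes as markers of these cells but not used by the rule, were higher. Ctla2a stood at 252 CPM in the unmixed cells and 29.8 CPM in the other CD8 T cells, a log2 ratio of 3.08 (interval 2.80 to 3.36), with a UMI in 33 of 77 cells. Klrk1, the gene of the activating receptor NKG2D, stood at 79.9 against 18.8 CPM, a log2 ratio of 2.08 (1.62 to 2.53), with a UMI in 19 cells. The order was the same at equal depth. Thinned to 2000 UMIs, a Ctla2a UMI was seen in 26.0% of the chosen and 4.51% of the other cells, and a Klrk1 UMI in 9.09% and 3.23%. Unthinned, these shares were 42.9% and 8.48% for Ctla2a, and 24.7% and 7.42% for Klrk1. In B cells 0.306% had a UMI of either gene after thinning.

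Of 26 killer cell receptor genes 21 were not measured, and 4 of the other 5 were at least 2-fold higher: Klrk1, Cd160, Slamf7 and Ncr1. Cd160, Slamf7 and Ncr1 reached the limit of 10 expected UMIs only through the chosen cells, so this count was tilted upward by the filter. At the level of the other CD8 T cells alone, 2 of the 26 would count, Klrk1 and Klrd1. Cd160, a receptor of natural killer and memory T cells that binds HVEM and MHC class I, stood at 55.8 against 9.13 CPM (log2 2.61, 2.02 to 3.17, 17 cells). Slamf7, a SLAM family receptor, stood at 40.7 against 10.6 CPM (log2 1.95, 1.28 to 2.56, 20 cells). Klrd1 (CD94), the partner chain of the NKG2 receptors, was the measured exception, at 125 against 126 CPM (log2 -0.01, -0.35 to 0.31, 42 cells).

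Ncr1, the natural killer receptor NKp46, reached a log2 ratio of 5.67 but in few cells. It stood at 39.2 against 0.769 CPM, with UMIs in 5 of 77 cells. In 4 cells Ncr1 had 2 to 9 UMIs, together with 4 to 14 Tyrobp UMIs, 5 to 12 UMIs of Fcer1g (the other signalling adaptor of natural killer receptors), 2 to 8 Klrk1 UMIs and 3 to 36 Xcl1 UMIs. The same 4 cells had 9 to 38 Cd3 UMIs and 2 to 14 Cd8b1 UMIs. They held 38 of the 63 Tyrobp UMIs and 31 of the Fcer1g UMIs, which stood at 51.3 CPM in the 77 cells and 3.46 CPM in the others (log2 3.89, 6 cells). These 4 cells were picked out after their values were seen. Over the list of 8 natural killer markers, the 77 cells stood at 261 CPM (0 to 50 UMIs per cell, Klra8 at 0) and the other CD8 T cells at 101 CPM (0 to 8 UMIs per cell, Klra8 at 0). Of the 53 Klrk1 UMIs in the 77 cells, the 4 Ncr1 cells held 2, 5, 8 and 3. Of Cd160 they held 1, 1, 5 and 4 UMIs. The Klrk1, Cd160 and Slamf7 ratios without these 4 cells were not tested.

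Among 15 receptor adaptors and kinases, 12 were measured at the level of the other CD8 T cells alone, and 1 was at least 2-fold higher, Sh2d1a (SAP, the SLAM family adaptor), with a list median of 0.10. Lists of the syngeneic comparison are counted with that stricter limit, chosen after seeing the data. Sh2d1a stood at 237 against 114 CPM (log2 1.06, 0.81 to 1.30) with a UMI in 56 of 77 cells. Hcst, the NKG2D adaptor, did not follow Klrk1: it stood at 493 against 540 CPM, a log2 ratio of -0.13 (-0.30 to 0.03).

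Effector chemokines were very high in very few cells. Ccl4, an inflammatory chemokine, stood at 550 against 9.61 CPM (log2 5.84, 5.52 to 6.17), but its UMIs lay in 6 of 77 cells, and 3 of them held 45, 137 and 176. Ccl3 had UMIs in 4 cells. The cell with 176 Ccl4 UMIs was the one with 169 Xcl1 UMIs, and it also held 21 Ccl3 and 4 Ifng UMIs. The cell with 137 Ccl4 UMIs held 3 Xcl1, 15 Ccl3 and 13 Ifng UMIs, and these 2 cells held all Ifng UMIs of the group. None of the 3 cells had a Ccl5, Ctla2a, Klrk1, Lag3 or Tyrobp UMI. Single cells likewise carried Ccl1 (1 cell) and most of Gzmc (63 of 65 UMIs in 1 cell), and Penk (2 cells) and Nrgn (3 cells) rested on few. These cells were named after their values were seen.

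Genes spread over many cells gave a flatter picture of the granule and effector list. Of 18 genes 7 were measured, 2 were at least 2-fold higher and 0 lower, with a median of 0.58. Another 4 (Ccl3, Ccl4, Gzma and Tnf) passed 10 expected UMIs only through the chosen cells. Ccl5 stood at 678 against 363 CPM (log2 0.90, 0.76 to 1.04) with UMIs in 41 of 77 cells. Nkg7, a granule protein of cytotoxic cells, was nearly level at 1043 against 920 CPM (log2 0.18, 0.07 to 0.29) and was detected in 76 cells. Ctsw (cathepsin W) stood at 289 against 286 CPM and Srgn (serglycin, the granule proteoglycan) at 397 against 265 CPM. Gzmm (granzyme M) stood at 99.5 against 36.0 CPM (log2 1.47, 1.07 to 1.85, 17 cells). Gzma was higher only through 1 cell, which held 32 of 37 UMIs, and its log2 ratio without that cell was -0.64. Gzmb had 0 UMIs against 5.67 CPM in the other cells.

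Genes of naive and recirculating T cells were lower. All 15 genes of that list were measured, 14 had a ratio below 1, 3 were at least 2-fold lower and 0 higher, with a median of -0.55. Igfbp4 stood at 67.8 against 171 CPM (log2 -1.33, -1.79 to -0.91). S1pr1, the receptor that T cells use to leave lymph nodes, stood at 72.4 against 163 CPM (log2 -1.17, -1.62 to -0.76). Lef1 (216 against 381 CPM) and Klf2 (633 against 1007 CPM), transcription factors of quiescent T cells, had log2 ratios of -0.82 and -0.67. Tcf7, the TCF1 factor of naive and stem-like memory cells, was the gene that went the other way, at 288 against 211 CPM (log2 0.45, 0.23 to 0.66, 62 cells).

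Of 20 memory and interleukin-15 response genes, 17 were measured and 5 were at least 2-fold higher (Anxa2, Itgb1, Lgals1, S100a4 and S100a6), with a median of 0.62. Lgals1 (galectin 1) stood at 425 against 197 CPM (log2 1.11, 51 cells). Ly6c2, a surface marker of memory CD8 cells, stood at 597 against 886 CPM (log2 -0.57, -0.72 to -0.42), and Ly6c1 was also lower (log2 -0.55). Of 11 residence genes 3 were measured and 2 were at least 2-fold higher. Cxcr6, a chemokine receptor of tissue-homing T cells, stood at 110 against 43.4 CPM (log2 1.34, 0.96 to 1.70, 25 cells). Itgae (CD103) stood at 46.7 against 16.4 CPM (log2 1.51, 0.91 to 2.07, 17 cells).

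Of 11 checkpoint genes 1 was measured at the level of the other CD8 T cells, and it was not past 2-fold (log2 -0.04). Cd160 (above) and Cd200, which reached 10 expected UMIs only through the chosen cells, were higher. Cd200 stood at 51.3 against 8.74 CPM (log2 2.55, 14 cells, with 16 of 34 UMIs in 1). Pdcd1 (PD-1) was below the measurement limit, with 17 UMIs in 11 cells. Of 20 transcription factors 9 were measured and 2 were higher. Ikzf2 (Helios) stood at 128 against 21.5 CPM (log2 2.57, 2.20 to 2.94, 22 cells) and Batf had a log2 ratio of 1.21 (0.81 to 1.60, 34 cells). Id2, Runx3 and Eomes, which promote cytotoxic and memory fates, had log2 ratios of 0.14, 0.09 and 0.33. Of 16 costimulation and cytokine receptor genes 9 were measured and 1 was higher, Cd82, at 148 against 72.1 CPM (log2 1.04, 0.72 to 1.34, 41 cells). Tnfrsf4 (OX40), measured only through the chosen cells, stood at 54.3 against 11.1 CPM (log2 2.30, 1.71 to 2.85, 12 cells).

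Some of these values rested on cells with other features. Foxp3, the factor of regulatory T cells, had UMIs in 3 of the 77 cells, and those 3 held 37 Ikzf2, 22 Tnfrsf4 and 17 Izumo1r UMIs. Over the 4 regulatory T cell markers, of which Ikzf2 is one, the 77 cells stood at 163 CPM (0 to 28 UMIs per cell) and the other CD8 T cells at 36.1 CPM (0 to 23 UMIs per cell). Outside the 3 Foxp3 cells, no unmixed cell had more than 7 Ikzf2 or 3 Tnfrsf4 UMIs. The Ikzf2 and Tnfrsf4 ratios without these 3 cells were not tested. Of 14 cell cycle genes 8 were measured and 4 were at least 2-fold higher, with a median of 0.94. They lay in few cells: 5 cells held at least 20 UMIs of cycling markers each and had 13072 to 30754 UMIs in all. With a rule sum of 3 or more the log2 ratios turned to -0.19 for Stmn1, -0.71 for Mki67, -1.75 for Top2a and -0.91 for Ube2c. Stmn1 (214 against 46.5 CPM) was seen in 19 cells and Mki67 (63.3 against 14.3 CPM) in 8.

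Early activation genes were mixed, and interferon response genes lay near the whole. Of 18 early activation genes 9 were measured and 2 were at least 2-fold higher, with a median of 0.42. Cd69, which holds T cells in tissue after activation, stood at 131 against 58.8 CPM (log2 1.16, 0.82 to 1.48, 28 cells). Nfkbid, an inducible regulator of NF-kB, stood at 81.4 against 26.2 CPM (log2 1.63, 19 cells), and Nfkbia had a log2 ratio of 0.95. Of 26 type I interferon response genes 20 were measured, 0 were past 2-fold either way, and the median was -0.04. Of 25 interferon-gamma response genes 18 were measured, 1 was lower and the median was -0.21. Ifi27l2a stood at 1084 against 661 CPM (log2 0.71).

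The 10 lowest ratios with an interval below 0 came from genes of low level: Ccr9, E230001N04Rik, Kcmf1, Msh3, Sema4b, Trib2, Dnah8, Gpr146, Spice1 and Xpc. Ccr9, a gut-homing receptor, had 1 UMI in the 77 cells, 1.51 against 32.3 CPM.

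Other CD8 T cells with at least 2 UMIs over Ccl5, Cxcr3 and Il2rb, genes of memory CD8 cells, are called memory-like here. By the same count 49 of the 77 unmixed chosen cells (63.6%, exact interval 51.9 to 74.3%) were memory-like, against 597 of 1886 others (31.7%). The chosen cells were deeper, with a median of 7448 UMIs. Thinned to 2000 UMIs per cell, the shares were 36.4% (25.7 to 48.1%) and 14.2% (12.7 to 15.9%). Against these 597 cells, 153 of 5556 genes (2.75%) were at least 2-fold higher and 36 (0.648%) lower in the chosen cells, with a median log2 ratio of 0.10.

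Against memory-like cells Ctla2a, Klrk1 and Ikzf2 kept a ratio past 2-fold, while Gzmm did not. Gzmm stood at 99.5 against 76.3 CPM (log2 0.38, -0.03 to 0.77). Nkg7, Ctsw and Klrd1 had log2 ratios of -0.03, -0.11 and -0.17. Ctla2a stood at 252 against 61.3 CPM (log2 2.04, 1.74 to 2.33), Klrk1 at 79.9 against 22.3 CPM (log2 1.84, 1.32 to 2.35) and Ikzf2 at 128 against 24.5 CPM (log2 2.39, 1.95 to 2.83). Cd160, Cd200, Itgae, Cxcr6, Cd69 and Tox had log2 ratios of 2.27, 2.87, 1.56, 1.33, 1.29 and 1.10. Of these, Cd160 and Cd200 reached 10 expected UMIs only through the chosen cells. At the level of the memory-like cells 3 killer receptor genes were measured, and Klrk1 and Slamf7 were at least 2-fold higher. Of 7 granule and effector genes so measured 1 was, Ccl4, with a median of 0.38. Of 14 measured naive genes 0 were past 2-fold, with a median of -0.36. After thinning to 2000 UMIs, 10.1% of memory-like cells had a Ctla2a UMI and 4.19% a Klrk1 UMI, between the chosen and all other CD8 T cells.

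**Figure D2:**
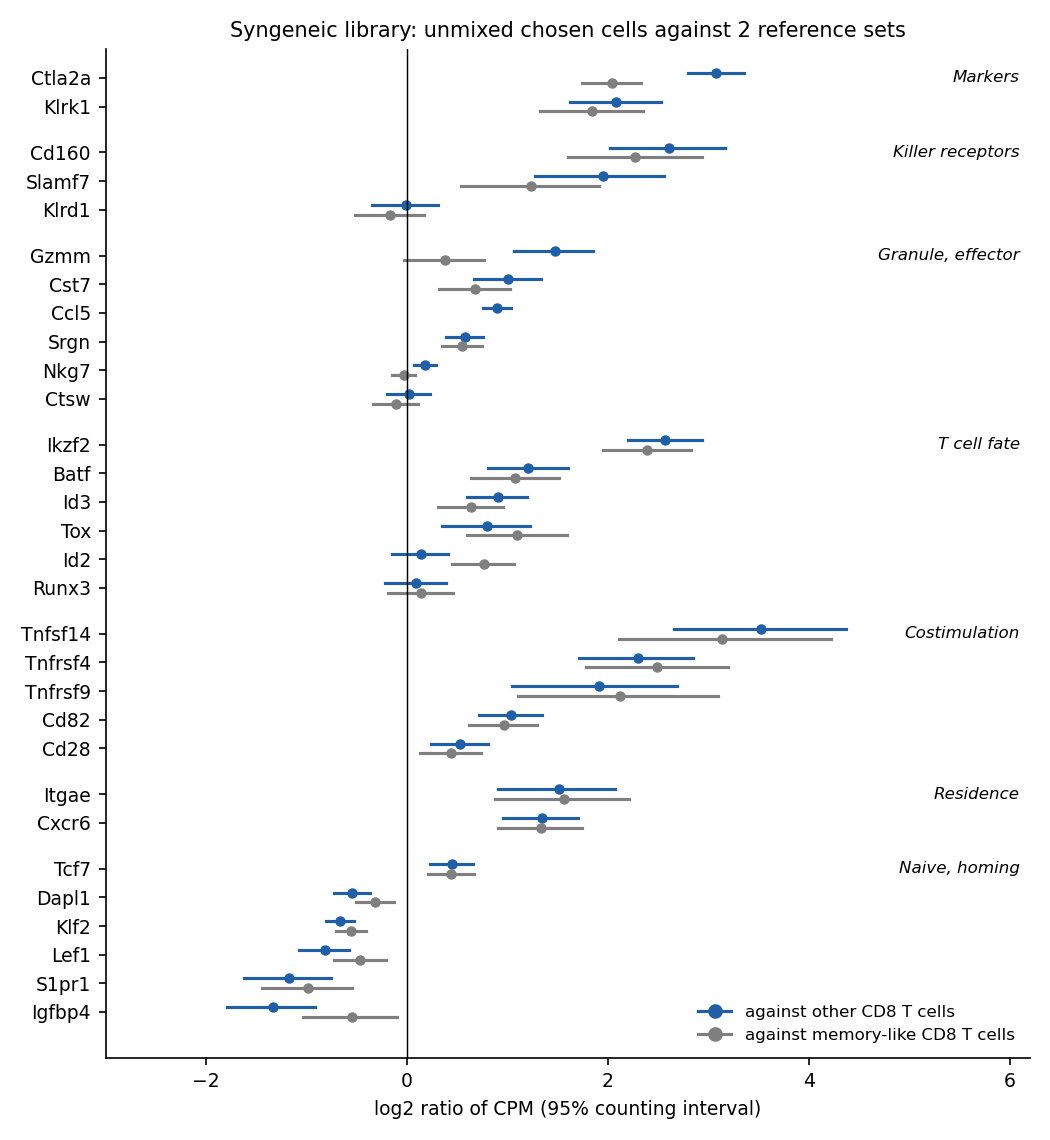
Log2 ratios of CPM (x axis) for 30 genes (y axis, grouped by role) in the 77 unmixed chosen cells of the syngeneic library, against other CD8 T cells (blue) and against memory-like CD8 T cells (grey). Bars are exact 95% intervals for counting error. Ctla2a, Klrk1, Cd160 and Ikzf2 lie to the right in both comparisons, while Nkg7, Ctsw and Klrd1 lie near 0. In both comparisons Cd160 reached 10 expected UMIs only through the chosen cells.

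Within the unmixed syngeneic cells, those with Xcl1 and those with Lag3 carried different transcripts. The 41 cells with Xcl1 and no Lag3 (350931 UMIs) were set against the 15 with Lag3 and no Xcl1 (145397 UMIs). Of 1834 measured genes 41 (2.24%) were at least 2-fold higher in the Xcl1 cells and 104 (5.67%) at least 2-fold higher in the Lag3 cells, with a median log2 ratio of -0.19.

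Of 14 measured memory genes 7 were at least 2-fold higher and 1 lower in the Xcl1 cells, and of 7 measured granule and effector genes 4 were higher and 0 lower. The stricter limit was not applied to these counts, so the filter tilted them. Of the genes named here, Ccl4, Gzmm, Cd7, Ctla2a, Klrd1, Eomes and Cd69 reached 10 expected UMIs only through the Xcl1 cells. Anxa2, the lower memory gene, reached that limit only through the Lag3 cells. Ccl5 stood at 1148 CPM in the Xcl1 cells and 82.5 CPM in the Lag3 cells (log2 3.80, 2.98 to 4.76). Ctla2a stood at 345 against 41.3 CPM (log2 3.06, 1.90 to 4.54). Gzmm stood at 165 CPM against 0 UMIs, at least 8.01-fold higher against a floor of 3 UMIs over the group. Klrd1 stood at 151 against 27.5 CPM (log2 2.46), Cd69 at 205 against 34.4 CPM (log2 2.58), Cd7 at 137 against 13.8 CPM (log2 3.31) and Eomes at 117 against 27.5 CPM (log2 2.09). Ly6c2, lower in the chosen cells as a whole, was 812 CPM in the Xcl1 cells and 220 CPM in the Lag3 cells (log2 1.88). Nkg7 differed less, at 1185 against 702 CPM (log2 0.76). Ccl4 was 1040 CPM against 0 UMIs, but in 6 cells.

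The Lag3 cells had higher levels of Ikzf2, Tnfrsf4, Izumo1r and Ly6a. Ikzf2, Tnfrsf4, Izumo1r, Anxa2, Marcksl1 and Fabp5 reached 10 expected UMIs only through the Lag3 cells, so their choice was tilted by the filter. Ikzf2 stood at 59.8 CPM in the Xcl1 cells and 289 CPM in the Lag3 cells (log2 -2.27, -3.10 to -1.48). Tnfrsf4 stood at 28.5 against 138 CPM (log2 -2.27) and Izumo1r, the folate receptor 4 of regulatory and unresponsive T cells, at 51.3 against 241 CPM (log2 -2.23). Of the 15 Lag3 cells, 2 had Foxp3 UMIs, and they held 29 of the 42 Ikzf2 UMIs and 14 of the 20 Tnfrsf4 UMIs. The other 13 stood at 125 CPM for Ikzf2, 57.7 CPM for Tnfrsf4 and 221 CPM for Izumo1r. Early activation genes did not follow: of 6 measured, 2 were at least 2-fold higher in the Xcl1 cells (Cd69 and Myc) and 0 in the Lag3 cells. Cd69 was measured only through the Xcl1 cells. Ly6a (74.1 against 509 CPM), Anxa2 (17.1 against 158 CPM), Marcksl1 (17.1 against 151 CPM) and the fatty acid binding protein Fabp5 (37.0 against 193 CPM) were among the 10 lowest ratios. Foxp3 had 1 UMI in the Xcl1 cells and 7 in the Lag3 cells, and Pdcd1 2 and 9 UMIs, both below the measurement limit. Klrk1, also below it, stood at 59.8 and 75.7 CPM.

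**Figure D3:**
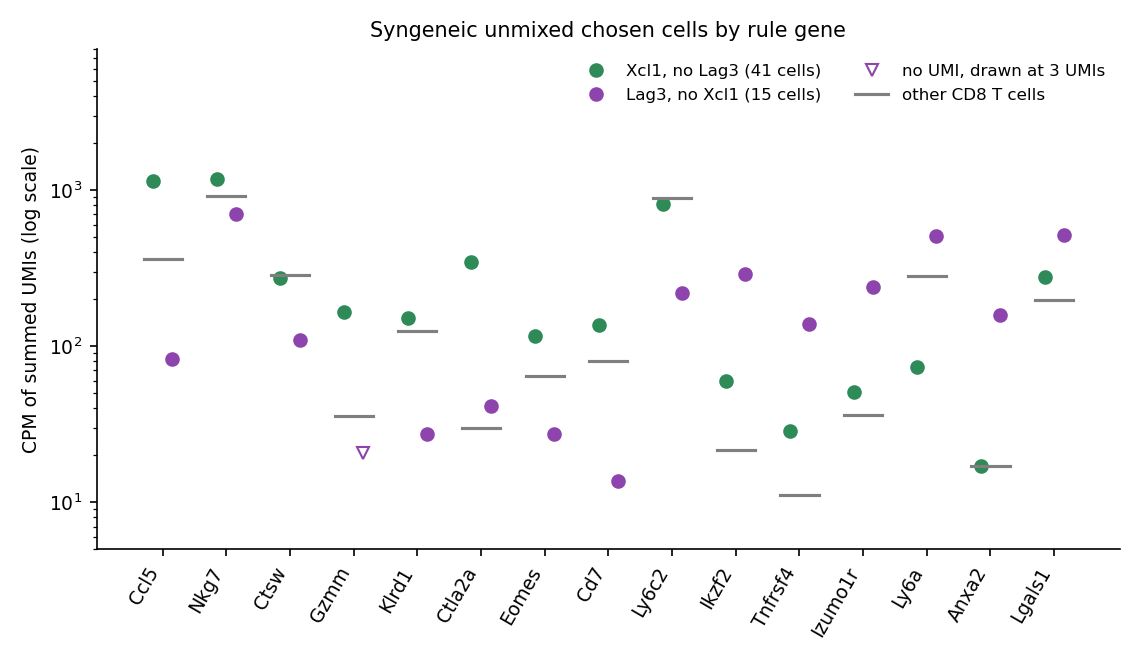
CPM (y axis, log scale) of 15 genes (x axis) in the 41 unmixed syngeneic cells with Xcl1 and no Lag3 and in the 15 with Lag3 and no Xcl1; a grey bar marks the level in the other CD8 T cells of that library, and a triangle marks a gene with 0 UMIs, drawn at 3 UMIs. Ccl5, Ctla2a and Gzmm lie higher in the Xcl1 cells, and Ikzf2, Tnfrsf4 and Izumo1r in the Lag3 cells. Of these genes, all but Ccl5 reached 10 expected UMIs only through the cells in which they lie higher.

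The same comparison in the allogeneic library rests on few cells. Over all 13 chosen cells, 145 of 1303 measured genes (11.1%) were at least 2-fold higher than in other CD8 T cells and 63 (4.83%) lower. Scaling without mitochondrial, ribosomal and haemoglobin genes gave 107 higher and 171 lower. In the 12 unmixed cells (79297 UMIs) 72 of 984 genes (7.32%) were higher and 22 (2.24%) lower. The median over all measured genes was 0.22, so a log2 ratio near 0.22 is the common level here, and the split turned to 49 higher and 41 lower without those technical genes.

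The marker genes not used by the rule had few UMIs here. Klrk1 had 10 UMIs in 5 of the 12 cells, too few to count as measured, and stood at 126 against 119 CPM (log2 0.09). Ctla2a had 2 UMIs in 1 cell, 25.2 against 18.7 CPM. The interval of the log2 ratio ran from -2.68 to 2.41 for Ctla2a, and for Klrk1 its upper bound lay at 2-fold, both below the syngeneic ratios, though these 2 differences between libraries were not tested. After thinning to 2000 UMIs, 36.4% of 11 chosen and 15.3% of other CD8 T cells had a Klrk1 UMI, against 0 allogeneic B cells, and 30.2% of memory-like ones did.

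Genes that were higher in several of the 12 cells included Cd200, Id2, Cd28 and Cxcr3. Of these, Cd200, Cd28 and Cxcr3 reached 10 expected UMIs only through the chosen cells. Cd200, the ligand of an inhibitory myeloid receptor, stood at 404 against 14.9 CPM (log2 4.76, 3.95 to 5.58). It had UMIs in 7 cells, with 16 of 32 in 1 cell, and a log2 ratio of 3.92 without that cell. B cells of this library held Cd200 at 330 CPM. Id2, which promotes effector fate, stood at 504 against 174 CPM (log2 1.54, 1.02 to 2.02, 9 cells). Cd28, the main costimulatory receptor, stood at 303 against 83.4 CPM (log2 1.86, 1.17 to 2.49, 10 cells). Cxcr3 stood at 252 against 33.0 CPM (log2 2.93, 2.11 to 3.70) in 4 cells, with 11 UMIs in 1 cell and 4, 2 and 3 in the others. Dusp2, an activation-induced phosphatase, stood at 542 against 227 CPM (log2 1.26) and was seen in all 12.

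A single cell carried the cell cycle genes. It had 16367 UMIs, 77 of them of cycling markers, and held 106 of 108 Hist1h2ap, 30 of 31 Stmn1 and 47 of 59 Hmgb2 UMIs. Without it the Hmgb2 ratio was 0.28. The same cell had 3 Foxp3 UMIs, 14 of the 20 Lgals1 UMIs and the 11 Cxcr3 UMIs named above.

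Of the 12 cells 6 (exact interval 21.1 to 78.9%) were memory-like by Ccl5, Cxcr3 and Il2rb, against 17.4% of other CD8 T cells. Thinned to 2000 UMIs, the shares were 36.4% (10.9 to 69.2%) and 9.94%. Single memory genes went both ways. Ccl5 stood at 63.1 against 388 CPM (log2 -2.62, -4.25 to -1.39), in 2 cells. Ly6c1 (139 against 531 CPM, log2 -1.94), Ly6c2 (189 against 668 CPM, log2 -1.82) and the survival factor Bcl2 (214 against 791 CPM, log2 -1.88) were all at least 2-fold lower. Of 20 memory genes 7 were measured, with 2 higher (Cxcr3 and Lgals1, both measured only through the chosen cells) and 4 lower. Their median was -1.06, and 0.16 with the mixed cell. Of 15 naive genes 10 were measured, with 0 higher and 2 lower and a median of -0.86. Klrd1 (63.1 against 194 CPM, log2 -1.62) and Nkg7 (618 against 968 CPM, log2 -0.65) were lower as well. Of 26 type I interferon genes 17 were measured and 1 was higher, Ifi27l2a (3014 against 860 CPM, log2 1.81, 10 cells), with a median of -0.04.

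The contrast between grafts asks whether the chosen cells differed with the donor. The 2 libraries also differ in depth, neutrophil transcripts and kept share of barcodes, so graft and library cannot be told apart, and the other CD8 T cells are given beside each value. Over all chosen cells 174 of 1350 measured genes (12.9%) were at least 2-fold higher in the allogeneic library and 87 (6.44%) lower. Scaling without technical genes gave 141 and 158. In unmixed cells 118 of 1017 genes (11.6%) were higher and 28 (2.75%) lower, and in other CD8 T cells 527 of 7877 (6.69%) and 202 (2.56%).

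Type I interferon response genes were higher in the allogeneic library in both kinds of cell. Of 14 measured in the chosen cells 12 were at least 2-fold higher and 0 lower, with a median of 1.87. The limit of 10 expected UMIs was set on the mean level of both groups. Isg15, Ifit3 and Bst2 reached it only through the allogeneic cells, so this count and median were tilted upward by the filter. In the other CD8 T cells 21 of 24 were higher, with a median of 1.83. Isg15, a ubiquitin-like protein of the antiviral response, stood at 467 CPM in allogeneic and 98.0 CPM in syngeneic chosen cells (log2 2.25, 1.63 to 2.86), and at 366 and 89.8 CPM in the other cells. Ifit3 stood at 315 and 58.8 CPM in chosen cells and 418 and 38.7 CPM in the others. Bst2 (tetherin) stood at 580 and 113 CPM in chosen cells and 339 and 146 CPM in the others. Ifi27l2a stood at 3014 and 1084 CPM in chosen cells (log2 1.48), and at 860 and 661 CPM in the others (log2 0.38).

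Tsc22d3 and Fkbp5, both inducible by glucocorticoids, and Ly6a were among the 10 highest ratios in chosen cells. Tsc22d3, Fkbp5 and S100a8 reached 10 expected UMIs only through the allogeneic chosen cells. Tsc22d3 stood at 441 and 46.7 CPM in chosen cells and 631 and 95.9 CPM in the others. Fkbp5 stood at 240 and 25.6 CPM in chosen cells and 110 and 15.1 CPM in the others. Ly6a (Sca-1) stood at 1829 and 226 CPM in chosen cells and 1930 and 282 CPM in the others. S100a8, at 643 CPM against 0 UMIs in the chosen cells (at least 142-fold higher against 3 UMIs), followed the neutrophil transcripts described above.

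Other genes had a library ratio in the chosen cells that the other CD8 T cells did not show, with no test of that difference possible. Ccl5 and Ctla2a reached 10 expected UMIs only through the syngeneic chosen cells, and Cd200 only through the allogeneic ones, so their choice was tilted by the filter. Ccl5 stood at 63.1 CPM in allogeneic and 678 CPM in syngeneic chosen cells (log2 -3.43, -5.06 to -2.19), against 388 and 363 CPM in the other cells. Ctla2a stood at 25.2 and 252 CPM (log2 -3.32, -6.38 to -1.44), against 18.7 and 29.8 CPM. Cd200 stood at 404 and 51.3 CPM (log2 2.98, 2.23 to 3.72), against 14.9 and 8.74 CPM. Id2 stood at 504 and 172 CPM, against 174 and 156 CPM. Klrk1 had the opposite pattern: 126 and 79.9 CPM in chosen cells (log2 0.66, -0.48 to 1.65, too few UMIs to count as measured), against 119 and 18.8 CPM in the others (log2 2.66). Beside these ratios stands the make-up of the groups: 66.7% of allogeneic and 36.4% of syngeneic unmixed cells had Lag3, and 16.7% and 70.1% had Xcl1.

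**Figure D4:**
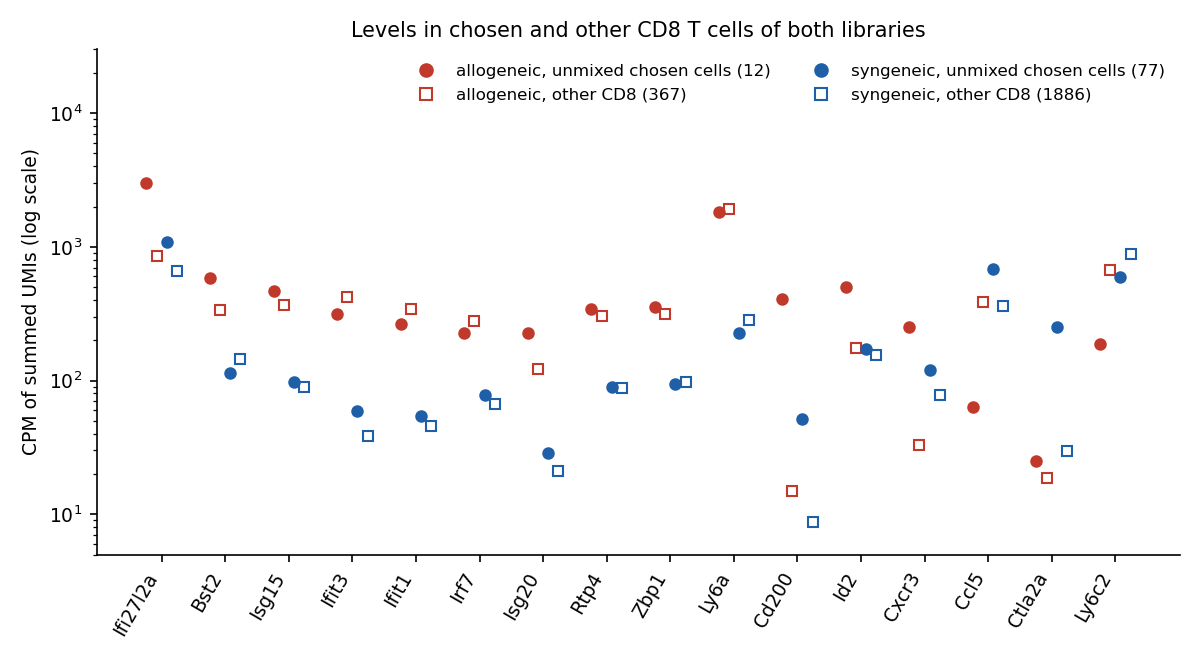
CPM (y axis, log scale) of 16 genes (x axis) in the unmixed chosen cells and the other CD8 T cells of the allogeneic and syngeneic libraries, 1 library per graft. Isg15 and Ly6a are higher in both kinds of allogeneic cell, while Ccl5 and Ctla2a are lower in the allogeneic than in the syngeneic chosen cells. Among chosen cells, Ccl5 and Ctla2a reached 10 expected UMIs only through the syngeneic library, and Isg15 only through the allogeneic one.

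Several of the syngeneic values depended on which rule gene brought the cells in. With Xcl1 taken out of the rule, the log2 ratio of Ctla2a was 1.11, that of Ccl5 0.11 and that of Slamf7 0.57, and those of Gzmm and Cd69 turned negative (-0.47 and -1.14). With Lag3 taken out, that of Tnfrsf4 was 0.82, and it was 0.86 without the deepest 5% of CD8 T cells. Under every alternative run, the log2 ratio of Klrk1 stayed between 2.01 and 3.22, that of Ikzf2 between 1.74 and 3.38, that of Cd160 between 1.22 and 3.19 and that of Itgae between 1.20 and 2.15. In the allogeneic library the log2 ratio of Cd200 was 0.82 with Lag3 taken out of the rule, that between libraries was 0.12, and that of Cxcr3 stayed between 2.29 and 3.56.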

How the data were processed

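The authors deposited gene-by-barcode matrices of UMI counts from Chromium 3' v3 libraries (per the labels' protocols), 1 per group. Cell Ranger 2.2.0, STAR, Seurat 2.3.4 and mm10 are named in the submitters' processing notes, without roles. Duplicate symbols were summed (27998 entries, 27933 symbols), and barcodes with 200 or more genes and no more than 10% mitochondrial UMIs were kept. No doublet caller was run. B cells, used as background, had at least 3 UMIs over Cd79a and Cd79b, and 0 UMIs of the Cd3 genes, Cd8a and Cd8b1. Barcodes with Cd3 or Cd8 transcripts were thus left out of that background. UMIs were summed per group and given as CPM, and ratios have exact conditional 95% intervals, shares Clopper-Pearson intervals, which cover counting error only. With 1 library per group there was no test, and a gene counted when past 2-fold with at least 10 expected UMIs in the smaller group. Genes were named by rule: the 5 markers, the 10 highest and 10 lowest ratios per comparison with an interval excluding 0, and up to 4 genes per list by mean CPM. Pdcd1, Foxp3, Ifng and list members named for passing 2-fold were chosen after their values were seen. The members and the 14 gene lists were chosen with earlier results of these data known. Of the listed symbols 14 were not matched. Alternatives changed the rule, the depth, the filters and the scaling. Python 3.11.15, numpy 2.4.6, scipy 1.17.1 and pandas 2.3.3 were used, and the ratio and interval code was tested on simulated data.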

Additional observations from a re-analysis of the deposited data

Results flagged for a closer look

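For 8 of the 874 genes measured in both libraries, the unmixed chosen cells lay above the other CD8 T cells of one library and below those of the other, with both counting intervals excluding 0. The difference between libraries was not tested, since each graft is 1 library, and the allogeneic median over all genes was 0.22. Ccl5, the chemokine of memory and effector cells, had a log2 ratio of -2.62 in the allogeneic and 0.90 in the syngeneic library, and Nkg7, a cytotoxic granule protein, -0.65 and 0.18. The remaining 6 genes went the other way. Thy1, the T cell surface protein CD90, had log2 ratios of 1.03 (allogeneic) and -0.19 (syngeneic), and Tagln2, an actin-binding protein, 1.06 and -0.31. Bst2, an interferon-induced protein, had 0.77 and -0.37. Shisa5, Itm2b and H2-D1 had 0.45 and -0.13, 0.40 and -0.18, and 0.25 and -0.11.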

How the results depend on the processing

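No paired analysis was possible because each group is 1 library. Shares of chosen cells among CD8 T cells (allogeneic 3.42%, syngeneic 4.69%) followed the rule and the depth: 15.5% and 15.1% with a sum of 1 or more, 1.58% and 2.42% with 3 or more, 1.58% and 3.68% without Lag3 in the rule, 0.704% and 0.444% thinned to 1000 UMIs, and 1.07% and 1.42% thinned to 2000. The syngeneic share was 3.48% without Tyrobp, 2.47% without Xcl1 and 3.19% without the deepest 5% of cells. Without CD8 T cells holding 2 or more UMIs of other lineages it was 9.09% (1 of 11 cells) and 1.76% (8 of 454).

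Counts of genes past 2-fold (syngeneic 405, allogeneic 208, between libraries 261) were 243, 71 and 113 without Tyrobp, 188, 38 and 107 without the deepest 5% of cells, 23, 8 and 11 without cells holding other lineages, 117, 69 and 85 with 30 expected UMIs, 5048, 6780 and 6697 with no minimum, and 187, 94 and 146 without mixed cells, an alternative chosen after seeing the data, as was leaving out shared barcodes.

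Some directions turned in the syngeneic comparison. With a rule sum of 3 or more, log2 ratios were -0.19 for Stmn1, -0.71 for Mki67, -1.75 for Top2a and -0.91 for Ube2c. Without Xcl1 in the rule they were -0.14 for Ccl3, -0.47 for Gzmm, -1.14 for Cd69, -0.23 for Nfkbid and -1.89 for Ube2c. Without the deepest cells they were -0.23 for Top2a and -0.38 for Ube2c, and without cells holding other lineages -0.86 for Cd69 and -0.46 for Stmn1. With mixed cells Ccr9 was 0.61, and counting only genes measured at the level of the other CD8 T cells, an alternative chosen after seeing the data, the checkpoint median was -0.04. In the allogeneic comparison, without Tyrobp in the rule Stmn1 was -0.09 and the cell cycle median -0.45, without the deepest cells that median was -0.34, without cells holding other lineages Bcl2 was 0.29, and with mixed cells the memory median was 0.16. Between libraries, Igfbp4 was -0.20 with a rule sum of 3 or more. The cause was not tested. Of the other values of single genes and lists, 1514 were counted as the same and 304 as moved. A gene value counted as moved when it left the counting interval of the main value. A list median counted as moved when it crossed 2-fold. A change of direction was looked for only where the main value was past 2-fold.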
